A study of Homo sapiens with 3 samples.

Results

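Genes that build iron-sulfur clusters, heme and coenzyme Q were examined for binding of estrogen-related receptor gamma (ERRγ, gene ESRRG) in BT-474 cells, together with 2 genes of lipoate synthesis and the transferrin receptor gene TFRC. The 35 genes were chosen by name, as members of these pathways, out of 20033 protein-coding genes. All peaks of the merged ERRγ list whose named gene was a member were taken, which gave 9 of the 15223 peaks, and a member without a peak counted as unbound. BT-474 is an established human breast cancer cell line of the luminal type. The cells were vehicle-treated and taken 90 min after fresh medium was given, and chromatin immunoprecipitation with sequencing (ChIP-seq) gave 2 libraries for ERRγ, whose antibody was custom-made, and 1 of input DNA, all sequenced as single 50 bp reads. All values come from 1 cell line in 1 condition, and the peak list merges both ERRγ libraries, so no value per library, no replicate spread and no comparison between treatments could be had. The depth of each library is unknown here.

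ERRγ is an orphan nuclear receptor that binds DNA at an extended receptor core site and is known for driving genes of mitochondrial energy metabolism. Iron-sulfur clusters, heme and coenzyme Q are the cofactors that carry electrons through the respiratory chain, and all of them are made wholly or partly in mitochondria. Iron enters most cells through the transferrin receptor, is passed to mitochondria, and is there built into clusters on a scaffold protein or inserted into protoporphyrin to give heme. Coenzyme Q is made by joining a long isoprenoid tail to a ring, which a complex of COQ proteins on the inner membrane then modifies.

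ERRγ peaks lay near 6 of the 35 genes, and the strong ones lay at the start sites of coenzyme Q genes and of TFRC. Here bound means that the centre of at least 1 peak carrying the gene's name lay within 10 kb of its transcription start site (TSS). By this measure 6 of the 35 members were bound (17.1%, exact Clopper-Pearson 95% interval 6.56 to 33.6), against 11.5% of all protein-coding genes. The bound members were BOLA3, HCCS, PDSS1, COQ3, COQ9 and TFRC. In coenzyme Q synthesis 3 of 12 genes were bound (25.0%, 5.49 to 57.2), in iron-sulfur cluster assembly 1 of 10 and in the heme group 1 of 10 (each 10%, 0.253 to 44.5). TFRC, the only gene of iron uptake among the members, was bound, and neither of the 2 lipoate genes was. The intervals of the 3 pathways overlapped widely and each held the share of all genes, so the pathways could not be told apart by their counts. The intervals cover counting error over genes and not error between experiments.

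**Figure D1:**
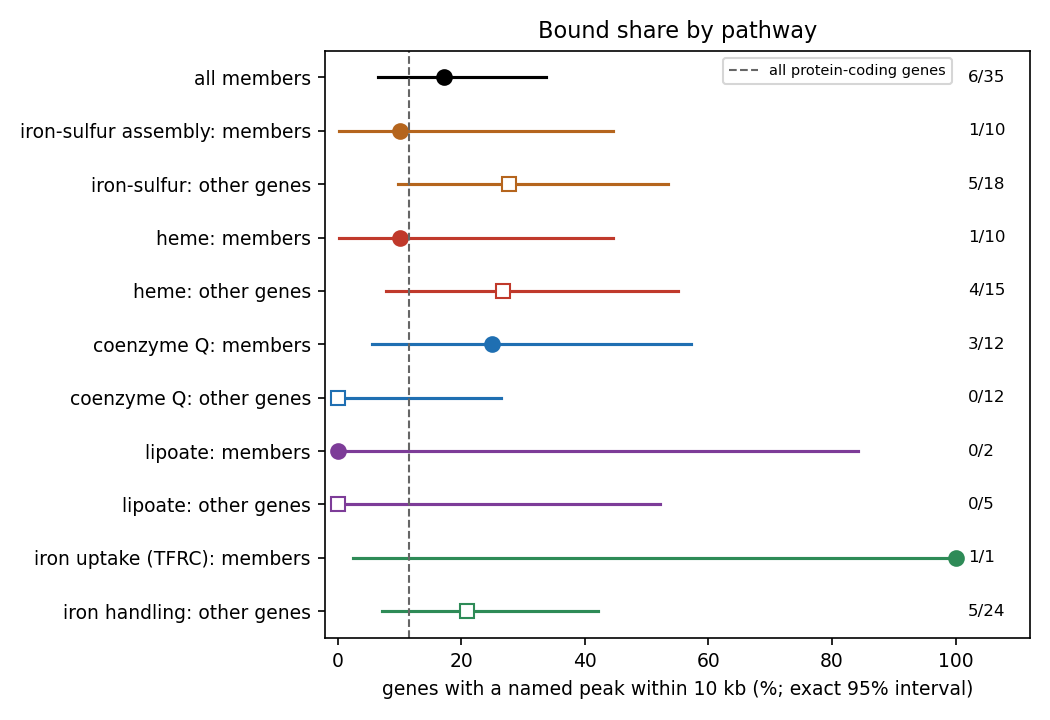
The x axis is the share of genes with a named ERRγ peak within 10 kb of the TSS (percent, with exact 95% intervals). Filled circles are members, all together and by pathway, and open squares are the other genes listed with each pathway. Counts are at the right. The dashed line marks the 11.5% of all protein-coding genes, and the interval of each pathway's members crosses it.

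Peaks of the members lay mostly at the TSS. Within 1 kb of the TSS 5 of 35 members had a peak (14.3%, exact 95% interval 4.81 to 30.3), against 4.16% of all protein-coding genes. At any distance 7 of 35 had a peak (20%, 8.44 to 36.9), against 29.6%, and within 50 kb the same 7 had one, against 22.6%. Members' shares were thus larger within 1 kb and smaller at the wider limits than those of all genes, without a test. The wider limits also count the peaks near the TSS, and the members' interval there held the shares of all genes. Among the upper 50% of peaks by score, 5 members had a peak within 10 kb (14.3%, 4.81 to 30.3), against 7.24% of all genes. Among the 10% of peaks with the highest scores, 3 members had a peak within 10 kb (8.57%, 1.80 to 23.1), against 1.83%. The peak score is the authors' own number, has no stated unit and ranges from 50.0 to 3227 over the list, so it serves here only to rank peaks within the list. At the top the ranks are tied, as 158 peaks share a score of 3100 and 17 exceed it. The highest score within 10 kb had a median of 599 over the 6 bound members, from 90.5 to 1543, and of 151 over the 2301 bound protein-coding genes. The bound member nearest to the distance limit was HCCS, at 2248 bp, and the nearest beyond it was COQ7, at 18.6 kb.

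**Figure D2:**
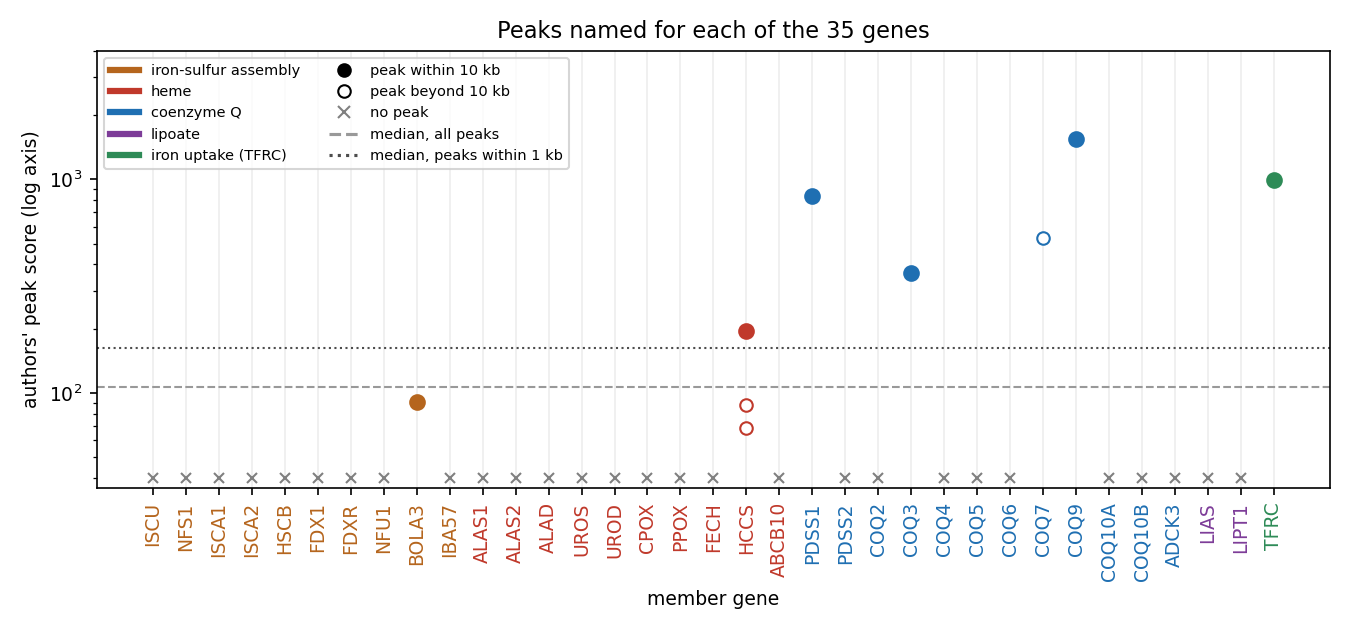
The authors' peak score (y axis, log scale) is plotted for every peak named for each of the 35 genes (x axis, coloured by pathway). Filled circles are peaks within 10 kb of the TSS, open circles lie beyond, and crosses at the lower edge mark the 28 genes without a peak, which have no score. The dashed line is the median of all peaks (106) and the dotted line that of peaks within 1 kb of a TSS (163). COQ9, TFRC and PDSS1 lead, and BOLA3 lies below the median of all peaks.

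Coenzyme Q synthesis held the peak with the highest score of the members, at COQ9. COQ9, which encodes a lipid-binding partner of the COQ7 hydroxylase, had a peak on chromosome 16 from 57480107 to 57482373 (hg19), 2267 bp wide, annotated as promoter and centred at -97 bp from the TSS (negative values lie upstream). Its score of 1543 was the 483rd highest of the list and exceeded 96.8% of all peaks and 94.5% of the 917 peaks within 1 kb of a TSS. PDSS1, a subunit of the synthase that makes the isoprenoid tail, had a promoter peak at -67 bp (chromosome 10, 26985612 to 26987445) with a score of 831, above 93.2% of all peaks. These were among the stronger promoter peaks of the list. COQ3, which encodes the O-methyltransferase of the ring, had a peak in intron 1 of 6, at 299 bp (chromosome 6, 99840998 to 99842569), with a score of 366, above 83.9% of all peaks. The bound genes of this pathway thus encode a subunit of the tail synthase, a ring methyltransferase and the partner of the COQ7 hydroxylase. COQ7 itself was not bound.

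The remaining coenzyme Q genes had no named peak near the TSS. No peak was named for PDSS2, the other subunit of the tail synthase, for COQ2, which joins tail and ring, or for COQ4, COQ5, COQ6, COQ10A, COQ10B and ADCK3 (now COQ8A, an atypical kinase of the pathway). COQ5 and COQ6 encode a methyltransferase and a hydroxylase of the ring, and COQ10A and COQ10B proteins that bind coenzyme Q. COQ7, the hydroxylase gene, had 1 peak beyond the limit, an intergenic one 18.6 kb downstream of the TSS on chromosome 16, from 19097163 to 19098602, with a score of 528. Its base composition resembled that of promoter peaks. The CpG fraction of the COQ7 peak was 0.0438, near the median of 0.0488 of the peaks within 1 kb of a TSS, whereas the median of the 12257 peaks beyond 10 kb was 0.00618. Only 57 of those 12257 (0.465%) had a CpG fraction as high. Another 3 peaks, named for ITPRIPL2 and scoring between 50.6 and 140, lay 30.8 to 35.4 kb from it.

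PDSS2 was unbound by name but had ERRγ peaks inside the gene. The annotation column placed 4 peaks in its introns, all named for BEND3. The strongest lay in intron 3 of 7 on chromosome 6, from 107593088 to 107594270, and scored 487, above 87.8% of all peaks. The next lay in intron 4 of 7 (107538868 to 107540058) and scored 407. The other two, in intron 7 of 7 and intron 3 of 7, scored 84.9 and 54.5. Relative to the BEND3 TSS the 4 peaks lay between -158 and -78.7 kb. PDSS1 thus had a promoter peak, whereas PDSS2 had only intronic peaks named for another gene. With annotated transcripts counted at any distance, 32.0% of all protein-coding genes had a peak, against 22.9% of members. No other member had an intronic, exonic or promoter peak named for another gene, by the annotated transcript.

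The sequences before the start sites of COQ9, PDSS1 and TFRC, the members with the highest scores, are shown because the peaks centred on or beside them. They are the 250 bases upstream of the RefSeq start in the GRCh38.p14 build, 5′ to 3′ in the direction of the gene, and capitals mark CpG dinucleotides. COQ9 is on the plus strand at chr16:57447229-57447478, PDSS1 on the plus strand at chr10:26697451-26697700 and TFRC on the minus strand at chr3:196082091-196082340.
COQ9: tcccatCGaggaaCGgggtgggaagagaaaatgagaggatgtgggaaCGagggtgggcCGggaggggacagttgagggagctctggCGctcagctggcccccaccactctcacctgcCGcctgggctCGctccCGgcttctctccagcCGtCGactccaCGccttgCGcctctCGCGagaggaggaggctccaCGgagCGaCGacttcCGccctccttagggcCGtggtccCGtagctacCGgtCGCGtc
PDSS1: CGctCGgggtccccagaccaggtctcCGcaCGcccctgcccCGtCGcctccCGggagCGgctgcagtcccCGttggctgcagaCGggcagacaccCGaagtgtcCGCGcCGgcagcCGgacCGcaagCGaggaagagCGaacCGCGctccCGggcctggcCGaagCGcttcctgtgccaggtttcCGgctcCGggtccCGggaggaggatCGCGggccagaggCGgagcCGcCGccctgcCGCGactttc
TFRC: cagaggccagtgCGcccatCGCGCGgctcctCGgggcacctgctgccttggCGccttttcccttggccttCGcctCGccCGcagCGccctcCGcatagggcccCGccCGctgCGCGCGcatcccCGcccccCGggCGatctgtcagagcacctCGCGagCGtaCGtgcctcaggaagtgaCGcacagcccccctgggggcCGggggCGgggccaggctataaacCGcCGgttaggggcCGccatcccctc

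The 3 stretches were rich in CpG dinucleotides, with 23 in COQ9, 33 in PDSS1 and 29 in TFRC, and had GC fractions of 0.676, 0.748 and 0.744. The COQ9 start faces that of CIAPIN1, a gene of cytosolic iron-sulfur protein assembly, on the other strand, with both starts within 1 kb in GRCh38.p14. The peak carried the name of COQ9 only, so CIAPIN1 counted as unbound among the other iron-sulfur genes below. Which of the 2 genes the peak acts on was not tested.

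TFRC, which encodes the receptor that brings transferrin-bound iron into the cell, had the strongest peak of the members after COQ9. The peak covered chromosome 3 from 195807362 to 195809995 (hg19), in intron 1 of 18 with its centre at 283 bp from the TSS, and scored 994, above 94.4% of all peaks and 90.2% of those within 1 kb of a TSS. At 2634 bp it was the widest member peak, wider than 93.8% of all peaks, so that it also spanned the TSS. No other peak was centred within 50 kb of it.

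**Figure D3:**
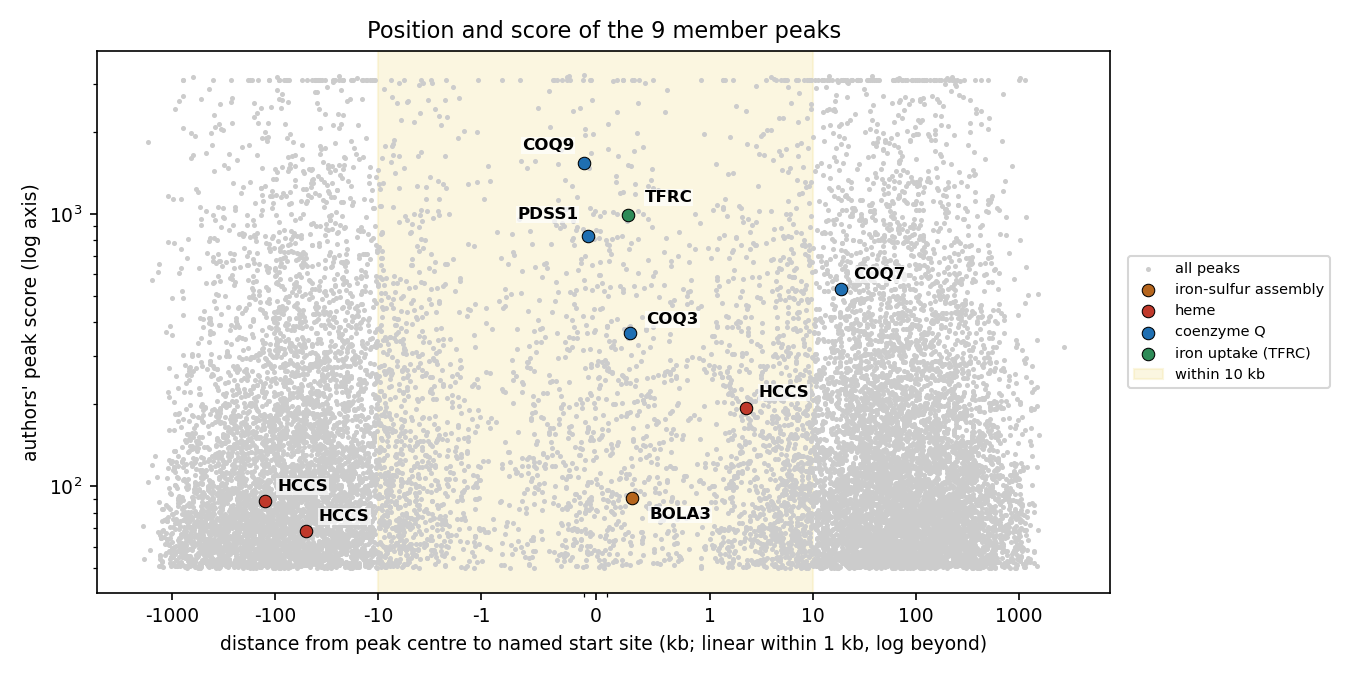
The authors' peak score (y axis, log scale) is plotted against the signed distance from the peak centre to the named TSS (x axis in kb, linear within 1 kb and log beyond) for all 15223 peaks in grey and the 9 member peaks in colour. The band marks 10 kb on either side, and COQ9, PDSS1, TFRC, COQ3 and BOLA3 sit within 1 kb of the TSS.

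Iron-sulfur cluster assembly had a single, weak peak. BOLA3, which acts late in mitochondria to deliver clusters to target proteins such as lipoate synthase, had a peak in intron 1 of 3 at 322 bp from the TSS (chromosome 2, 74374010 to 74375425). Its score of 90.5 exceeded 41.9% of all peaks and 28.5% of those within 1 kb of a TSS, and was thus below the medians of 106 and 163. No peak, near or far, carried the name of the scaffold gene ISCU, the cysteine desulfurase gene NFS1, which supplies sulfur, the co-chaperone gene HSCB, or FDX1 and FDXR, a ferredoxin and its reductase. The same held for ISCA1, ISCA2, IBA57 and NFU1, which act on later steps of cluster maturation and transfer. The 2 lipoate genes had no peak either. They are LIAS, whose product is an iron-sulfur enzyme that makes lipoate, and LIPT1, which transfers it to target proteins.

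No enzyme on the path from glycine to heme had a peak. ALAS1 and ALAS2, the housekeeping and erythroid forms of the first and rate-limiting enzyme, and ALAD, UROS, UROD, CPOX, PPOX and FECH, the last of which inserts iron, were without a peak at any distance. A count of 0 of 8 genes allows a share of up to 37.5%, so a share as low as that of all genes could not be told from a higher one. ABCB10, a mitochondrial inner membrane transporter needed for heme synthesis, had no peak. The only gene of the heme group with peaks was HCCS, which attaches heme to cytochrome c and so acts after heme is made. HCCS had 3 peaks on chromosome X, of which the strongest, in intron 2 of 6 at 2248 bp from the TSS (11131023 to 11132286), scored 194, above 70.9% of all peaks. The others were intergenic, at -49.8 and -127 kb, and scored 68.3 and 88.0. Of the 6 bound members HCCS was the only one with its nearest peak beyond 1 kb.

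Peaks near a TSS can be missed for a member when the gene facing it is nearer, so these partners were looked up. Partners were sought only among genes with a RefSeq promoter sequence in GRCh38.p14, which 15842 protein-coding genes and 32 of the 35 members had. UROS, COQ3 and COQ4 had none, so no partner could be found for them. Of the 32 members, 12 had such a gene on the other strand starting within 1 kb, and for 8 of them that gene was protein-coding. These pairs were NFS1 and ROMO1, ISCA2 and NPC2, HSCB and CHEK2, UROD and HECTD3, COQ6 and FAM161B, COQ9 and CIAPIN1, LIAS and RPL9, and LIPT1 and TSGA10. None of the partners of the 12 genes had a named peak within 1 kb, so 0 unbound members gained a peak in this way. With partners counted the share of members stayed at 17.1%, against 12.1% of all protein-coding genes.

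The 5 member peaks within 1 kb of a TSS were CpG-rich and the peaks of HCCS were not. GC fractions of the 5 ran from 0.462 in COQ3 to 0.616 in BOLA3, with a median of 0.541, the same to 2 digits as the 0.540 of all 917 peaks within 1 kb. Their CpG fractions ran from 0.0395 in COQ3 to 0.0726 in PDSS1, with a median of 0.0558 against 0.0488. The 3 HCCS peaks had CpG fractions of 0.00531 to 0.00803, near the median of 0.00690 over all peaks. The 5 peaks were 1416 to 2634 bp wide (median 1834), against a median of 1257 bp over the 917. Their mean conservation, a deposited score between 0 and 1, ran from 0.05 to 0.1 (median 0.07), against a median of 0.12. The member peaks at promoters were thus wider and less conserved at the median than promoter peaks at large, which is given as a description of 5 peaks.

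**Figure D4:**
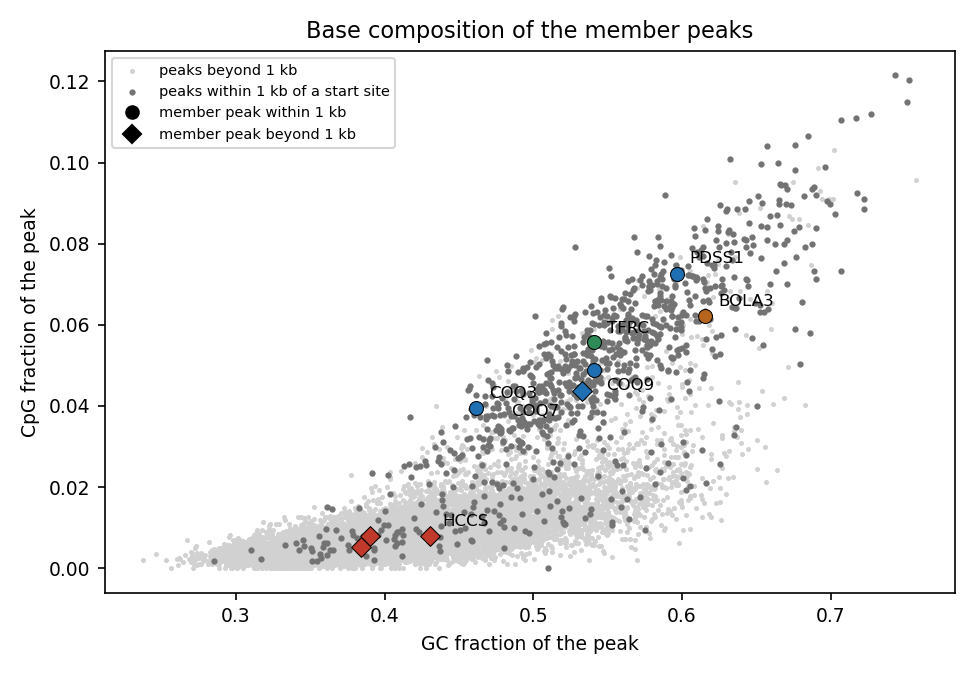
The CpG fraction (y axis) is plotted against the GC fraction (x axis) of each peak, with peaks within 1 kb of a TSS in dark grey and the others in light grey. Member peaks are coloured by pathway, with circles within 1 kb and diamonds beyond. COQ7 lies among the promoter peaks although it is 18.6 kb from the TSS, and the 3 HCCS peaks lie among the distal ones.

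The full ERR element was not found in the members' promoter windows, but it was rare in the promoter windows of all genes too. Receptors of this family are known to bind TCAAGGTCA, which contains the shorter AAGGTCA and the core AGGTCA that other nuclear receptors also bind. These letters were searched on both strands of the RefSeq windows from 250 bases before to 50 after each start (GRCh38.p14). Windows were found for 32 of the 35 members, with 46 windows as some genes have several starts, and not for UROS, COQ3 and COQ4. TCAAGGTCA was in 0 of 46 member windows, against 0.243% of 22198 windows of protein-coding genes and 0.763% of 1048 windows of genes with a peak within 1 kb. AAGGTCA was in 1 of 46 (2.17%), against 3.22% and 8.02%. AGGTCA was in 7 of 46 (15.2%), against 11.9% and 19.8%. These 7 windows came from 6 genes, as windows of the same gene can overlap. Of the 5 windows of bound members 1 held AGGTCA. At a share of 0.763% even for genes with a peak within 1 kb, 5 windows would rarely hold TCAAGGTCA. Its absence from them is therefore not informative. The bound member COQ3 had no window, and the HCCS peak was centred 2248 bp from its TSS. The windows are shorter than the peaks and lie on RefSeq starts that may differ from those in the peak table, so other parts of the peaks were not searched.

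The longest match among the members, AAGGTCA in LIPT1, is shown 5′ to 3′ in the direction of the gene. The match is in capitals and reads as the reverse complement of the element. The stretch is on the plus strand at chr2:99154750-99154779 in GRCh38.p14, and its match lies from -206 to -200, counted from 0 at the start base.
LIPT1: ctggggccttaTGACCTTcggtacttttat

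LIPT1 was unbound and had the longest match among the members, whereas COQ9, PDSS1 and TFRC, with the highest scores, had none. When mismatches were allowed in the 250 upstream bases, 0 of 46 member windows came within 1 letter of TCAAGGTCA, against 3.91% of all windows and 8.02% of those of genes with a peak within 1 kb. Within 2 letters came 23 of 46 (50.0%), against 36.2% and 41.7%. Of these 23 windows 22 were among the 41 of unbound members (53.7%) and 1 among the 5 of bound members. The 41 windows came from 27 genes and some overlap, so they are not independent counts, whereas the 5 came from 5 genes. Promoter windows of the bound members were rich in GC and CpG. The 5 windows had GC fractions of 0.66 to 0.763 (median 0.733) and 30 to 40 CpG dinucleotides (median 35), and the 41 windows of unbound members 0.487 to 0.773 (median 0.63) and 3 to 39 (median 25). The ranges overlapped. The medians over all windows of protein-coding genes were 0.623 and 21. Over the 1048 windows of genes with a peak within 1 kb they were similar, at 0.627 and 23.

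Other genes of the same pathways, or related to them, were taken from a list of 74 and counted in the same way. Of these 74 genes 14 were bound (18.9%, exact 95% interval 10.7 to 29.7), against the 11.5% of all protein-coding genes. Other iron-sulfur genes had 5 of 18 bound (27.8%, 9.69 to 53.5). They were led by HSPA9, the mitochondrial chaperone that works with HSCB, with a score of 2145 at 107 bp. CIAO2A, of cytosolic iron-sulfur assembly, scored 699 at 717 bp, and NUBPL, needed for the clusters of complex I, 104 at -5747 bp. CIAO3, named after its value was seen, scored 88.8 at -37 bp. The chaperone HSPA9 therefore had a far stronger peak than BOLA3, while its partner HSCB had none.

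Other heme genes had 4 of 15 bound (26.7%, 7.79 to 55.1). COX10, which makes heme O for cytochrome c oxidase, had 2 peaks within 10 kb, with scores of 560 at -7252 bp and 532 at 244 bp. BLVRA, a biliverdin reductase of heme breakdown, scored 270 at 3432 bp, CLPX, a mitochondrial unfoldase that activates ALAS, 220 at -459 bp, and the carrier gene SLC25A39 106 at -2786 bp.

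Other iron genes had 5 of 24 bound (20.8%, 7.13 to 42.2). STEAP3, the reductase of endosomal iron taken up through TFRC, scored 2606 at -5124 bp. NCOA4, the receptor for ferritin breakdown, scored 1024 at -8 bp, so both scored higher than TFRC. Lower was the transferrin gene TF with 252 at -3024 bp. The iron importer gene SLC11A2, named after its value was seen, scored 103 at -8302 bp.

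Other coenzyme Q genes had 0 of 12 bound, which allows a share of up to 25.0%, and other lipoate genes 0 of 5. The 12 included COQ8B, the relative of ADCK3, and the users of coenzyme Q ETFDH, DHODH and PRODH. With members and other genes pooled, 6 of 25 iron genes (24.0%), 6 of 28 iron-sulfur genes (21.4%), 5 of 25 heme genes (20%), 3 of 24 coenzyme Q genes (12.5%) and 0 of 7 lipoate genes were bound. Among the members alone, coenzyme Q (3 of 12) stood below iron uptake, which is TFRC only (1 of 1), and above iron-sulfur assembly and heme (1 of 10 each). With the other genes pooled it stood below iron, iron-sulfur and heme genes and above lipoate. The pooled coenzyme Q group also holds users of coenzyme Q, so this rank is not that of its synthesis genes alone. The exact intervals of these shares overlapped, and no difference between them was tested.

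**Figure D5:**
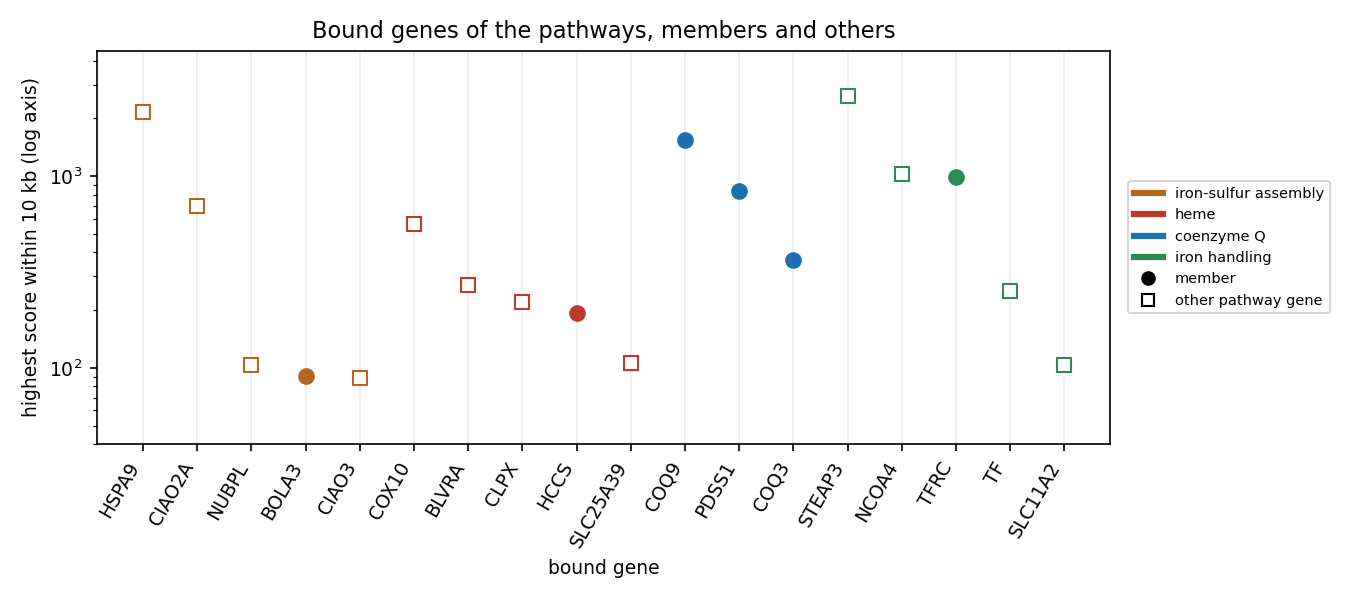
The highest score of a peak within 10 kb (y axis, log scale) is plotted for bound genes (x axis), coloured by pathway. Filled circles are members and open squares are other genes listed with the pathways. The 3 bound coenzyme Q genes are all members, and HSPA9 and STEAP3 exceed every member. Not every bound gene of the wider lists is drawn.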

How the data were processed

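ERRγ ChIP-seq peaks of BT-474 cells were taken from 1 merged, annotated list made by the authors from 2 ERRγ libraries, beside 1 input library. The tools BWA 0.5.9, HOMER 3.18 and MACS 1.4.1 and the build hg19 are named per the submitters' processing notes, without their roles. The threshold, the handling of duplicates and the use of the input are not stated in the sources read here. The deposited peak score has no stated unit. The deposited GC and CpG values are fractions of the peak's bases, the deposited conservation is a score from 0 to 1, per the file headers, and the deposited distance to the TSS is in bp.

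Peaks were matched to members by gene identifier or symbol, older symbols included, through a RefSeq gene table (GRCh38.p14), which matched all 35 members and 15153 of 15223 peaks. Genes were called bound when a named peak was centred within 10 kb of the TSS, in Python 3.11.15 with pandas 2.3.3, and intervals are exact Clopper-Pearson 95% intervals from SciPy 1.17.1. Where none was bound, 3 counts set the upper limit, which only approximates the exact one. A check on simulated data covered only the distance limit and the interval. It did not cover the matching of peaks to genes, so it gives no support to the counts. No test was run: the list has no replicates, and members and lists were chosen with earlier results of these data known. All members are named, and of each other list up to 4 genes with the highest score within 10 kb. Promoter sequences were to be shown for bound members with a match to the longer elements. There was none, so the 3 members with the highest scores were shown instead, a choice made after the values were seen, as was the search with mismatches. Sequences are from RefSeq (GRCh38.p14), peak coordinates are hg19, and no position was converted between them. Alternatives were other distances, stricter scores, other ways of naming genes, leaving out chromosomes 17 and 20, merging of peaks within 500 bp and another grouping. A few results of the wider lists and of the motif search are not reported here.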

Additional observations from a re-analysis of the deposited data

How the results depend on the processing

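The count of 6 bound members ran from 5 to 8 under other distances, the upper 50% of the peaks, other gene naming, merged peaks and without chromosomes 17 and 20, and fell to 3 with the upper 10% of the peaks, where COQ9, PDSS1 and TFRC were left. The single bound iron-sulfur gene, BOLA3, was lost with the upper 50% and the upper 10% of the peaks (0 of 10 each). The single bound heme gene, HCCS, was lost at 1 kb and with the upper 10% (0 of 10 each), and with HCCS and ABCB10 left out of the group 0 of 8 were bound. Bound coenzyme Q genes rose from 3 to 5 of 12 when the gene of the annotated transcript was counted at any distance, an alternative added with the data in view, which added COQ7 and PDSS2. By that rule 8 of 35 members (22.9%) had a peak, against 32.0% of all protein-coding genes. The median score over bound members, 599, was 831 at 1 kb and 528 at 50 kb. No paired analysis was possible because the peak list merges both libraries, and for the same reason no replicate could be left out. A gene listed without a peak may have binding below the depth or the threshold of the list, both of which are unknown here.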

Other observations

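Distant peaks were named for genes of iron handling that are not among the 35. At any distance 12 of the 24 had a named peak (50.0%), including the 5 bound within 10 kb. The share of all protein-coding genes was 29.6%, and the difference was not tested. The iron exporter gene SLC40A1 had 2 peaks, scoring 561 at 38.9 kb and 408 at 20.9 kb from the TSS. ACO1, the cytosolic aconitase that doubles as an iron regulatory protein, had peaks of 1032 at -248 kb and 87.7 at -1338 kb, and its relative IREB2 had 1 of 285 at -15.2 kb. The ferritin heavy chain gene FTH1 had 1 of 277 at -18.9 kb, and the ferric reductase gene CYBRD1 1 of 224 at 42.4 kb. Which gene a distant peak acts on was not tested.

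Of the 12 other coenzyme Q genes 3 had peaks, all beyond 10 kb. The sulfide oxidoreductase gene SQOR had peaks of 415 at 221 kb and 60.1 at 657 kb, the kinase-like gene ADCK1 had 1 of 73.0 at 80.4 kb, and the mitochondrial glycerol phosphate dehydrogenase gene GPD2 had 3, scoring 52.0 to 89.6.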
